A study of Mus musculus with 14 samples.

Results

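Transcript signals of 9 genes of branched-chain amino acid catabolism were described in samples given as epididymal white fat of 3-week-old mice. The 9 were Bcat2, Bckdha, Bckdhb, Dbt, Ivd, Mccc1, Pccb, Hibch and Hibadh. The genes were listed by their role in the pathway, with earlier results of these data known. Every probe set annotated to one of them alone was taken, which gave 12 of the 22690 probe sets on the array. All 9 genes were among the 7436 genes tested of the 12393 genes with a probe set of their own. RNA came from ICR mice labelled male, with 1 Affymetrix array a mouse. UU mice (n = 4) were born to dams given 50% of the food of pregnancy-matched controls, and the restriction went on through suckling. UC mice (n = 5) had the same restriction before birth and free feeding of the dam in suckling. CC mice (n = 5) had dams that ate freely in both periods. UU and UC shared the restriction before birth and differed in the suckling period. Arrays are named below by group and by the replicate number in the labels, which do not say whether mice shared a litter. The p-values rest on the spread between these arrays. Restriction was given to dams, so mice that shared a dam would not be independent replicates of it.

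Leucine, isoleucine and valine are broken down in mitochondria. A transaminase first makes branched-chain keto acids, and a large dehydrogenase complex then commits these irreversibly to oxidation as acyl-CoAs. The leucine branch ends in acetyl-CoA and acetoacetate, the valine branch in propionyl-CoA, and the isoleucine branch in both acetyl-CoA and propionyl-CoA. In adipocytes the pathway is induced during differentiation, and its carbon can be used for fatty acid synthesis.

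The promoters of Bckdhb, Pccb and Hibadh are shown because each of these genes had the smallest unadjusted p among the 9 in one of the 3 comparisons. The sequences are from RefSeq on GRCm38.p6 and run 5′ to 3′ on the strand of the gene, up to the annotated start. Capitals mark a CCAAT box, a common promoter element, read on either strand (CCAAT or ATTGG). Bckdhb lies on the plus strand, and its window was chr9:83924887-83925110. Pccb lies on the minus strand, with the window chr9:101034941-101035134. Hibadh lies on the minus strand, with the window chr6:52640301-52640550.
Bckdhb: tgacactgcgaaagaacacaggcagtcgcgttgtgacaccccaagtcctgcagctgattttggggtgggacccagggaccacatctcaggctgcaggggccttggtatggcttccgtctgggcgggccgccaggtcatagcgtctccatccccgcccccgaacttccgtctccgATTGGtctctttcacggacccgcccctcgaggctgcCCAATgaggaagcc
Pccb: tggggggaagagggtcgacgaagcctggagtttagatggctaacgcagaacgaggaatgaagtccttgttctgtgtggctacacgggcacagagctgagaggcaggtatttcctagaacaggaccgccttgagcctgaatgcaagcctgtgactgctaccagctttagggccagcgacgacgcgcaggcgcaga
Hibadh: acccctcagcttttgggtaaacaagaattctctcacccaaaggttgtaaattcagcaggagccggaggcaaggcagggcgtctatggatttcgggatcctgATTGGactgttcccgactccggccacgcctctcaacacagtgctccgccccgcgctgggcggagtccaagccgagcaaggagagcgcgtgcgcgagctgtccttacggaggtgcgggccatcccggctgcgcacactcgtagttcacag

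A promoter window was matched for 8 of the 9 genes. The first 250 bases of a window held a CCAAT box in 4 of the 8 (Bckdhb, Hibadh, Ivd and Mccc1), against 33.8% of all 32851 windows. For Bckdhb and Pccb these bases ran past the annotated start, where the printed sequences end. A GC box (GGGCGG) was found in 4 of the 8 (Bckdhb, Hibadh, Hibch and Mccc1), against 32.7% of all windows. The E-box CACGTG was found in 0 of the 8, against 6% of windows. The nuclear receptor half-site AGGTCA was found in Bckdhb alone, against 14% of windows. Both strands were searched for each motif. Bcat2 and Bckdhb had a further window each, and a gene counted if any of its windows held the motif. The percentages are over single windows, so the units are not alike. These letters are a description of the windows and were not tied to the signals.

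The arrays differed in tissue markers in ways that the group labels do not give. UC2, UC5, CC2 and CC4 had signals of Gpx5, a secreted peroxidase of the epididymal epithelium, of 409.6 to 1155.1, against 5710.8 to 69623.9 on the other 10 arrays. UC5 and CC2, both labelled male, also had Xist, the female-specific RNA of the inactive X chromosome, at 5642.5 and 3980.6, against at most 1324.3 elsewhere. Their Y-linked signals were low, with 7.9 and 58.6 for Eif2s3y against 1234.9 to 2233.6 on the other arrays, and 339.5 and 150.3 for Kdm5d against 716.2 to 1835.1, so that both arrays went against their sex label. The same UC5 and CC2 arrays had 17040.8 and 8935.1 for Ucp1, the uncoupling protein of brown and beige fat, against 18.7 to 642.4 on the others. Alb, the liver's main secreted protein, was 25660.3 on UC2 and 550.4 to 3190.5 on the others. The summed signal of the 13 adipocyte markers on the array, of 15 listed, was 285808.8 to 389225.5 in UU, 358132.1 to 625875.4 in UC and 326005.4 to 539169.8 in CC. For the 6 brown fat markers the sum was 2323.3 to 3939.7 in UU, 1964.8 to 31680.4 in UC and 1847.5 to 29727.7 in CC. For the 8 epididymal markers on the array, of 17 listed, it was 31497.8 to 125764.2 in UU, 1691.1 to 124058.4 in UC and 1196.9 to 137651.6 in CC. The 11 macrophage markers summed to 20203.8 to 38866.1 in UU, 37832.6 to 94842.0 in UC and 38908.9 to 116670.7 in CC, and the 7 endothelial markers to 8251.3 to 12159.7 in UU, 10932.1 to 17038.0 in UC and 12696.9 to 22824.6 in CC. By these sums all UU arrays were below all CC arrays for both lists. For the macrophage markers the margin was narrow, and by mean log2 level UU2 (11.1) was not below CC5 (11.09). The liver markers went the other way, with sums of 3770.1 to 5364.8 in UU, 3451.7 to 79086.3 in UC and 1663.7 to 3318.9 in CC. The 10 skeletal muscle markers summed to 23938.2 on CC2 and 22431.2 on CC5, against 1331.7 to 4076.6 on the other arrays. Control transcripts gave log2 3'/5' ratios, which rise as RNA is less intact, of 2.105 on UU3, 1.631 on UC1 and 1.597 on UC4, against 0.40 to 1.08 on the others. The mean log2 signal of the adipocyte markers was 13.39 ± 0.46 in UU, 14.26 ± 0.36 in UC and 14.12 ± 0.29 in CC (SD over 4, 5 and 5 arrays). In such bulk RNA, fewer cells of a type and less RNA per cell cannot be told apart. The part of these differences in the results on the pathway was not tested, beyond the values given further on without some of these arrays or with a covariate.

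The first question was how fat of mice restricted in both periods (UU) differed from control fat (CC). Group means of all 9 genes were below the CC means, by log2 differences of -0.65 for Bckdhb to -0.04 for Ivd, with a median of -0.39. Across all genes tested 44.6% had a difference below 0 and the median was 0.05. None of the 9 passed an adjusted p of 0.05 in limma (moderated linear model, Benjamini-Hochberg over all genes), where the background was 0 of 7436 genes (percent called 0). At an unadjusted p under 0.05 the count was 1 of 9, Bckdhb, beside 16.4% of all genes. The UU and CC arrays overlapped for each of the 9 genes, where 8.34% of all genes had groups that did not overlap.

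For UC against CC, the comparison of restriction before birth alone, the 9 differences were centred near 0. Their median was -0.06, with 7 of 9 below 0 beside 50.5% of all genes, whose median was -0.003. The direction turned with single arrays, with 7 of 9 above 0 without UC1 (median 0.066) and 7 of 9 above 0 without CC2 (median 0.126), and with array weights 6 of 9 were above 0. With all arrays they ran from -0.40 for Pccb to 0.33 for Hibadh. None passed the adjusted p in limma (percent called 0 over all genes), and Pccb alone was under 0.05 unadjusted, beside 8.75% of all genes. No gene of the 9 had groups that did not overlap, beside 1.79% of all genes.

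For UU against UC, which differ in suckling, the median of the 9 was -0.34, with 7 of 9 below 0 beside 43.3% of all genes and a median of 0.06 over all genes. The values ran from -0.57 for Hibadh to 0.13 for Bcat2. None of the 9 passed the adjusted p in limma, beside 60 of 7436 genes in either direction (percent called 0.807), 9 of them higher in UU (0.121) and 51 lower (0.686). Hibadh alone was under 0.05 unadjusted, beside 17.9% of all genes. By the brightest probe sets no gene had groups that did not overlap, beside 6% of all genes. UU against CC and UU against UC share the 4 UU arrays, so their values are not independent of each other.

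**Figure D1:**
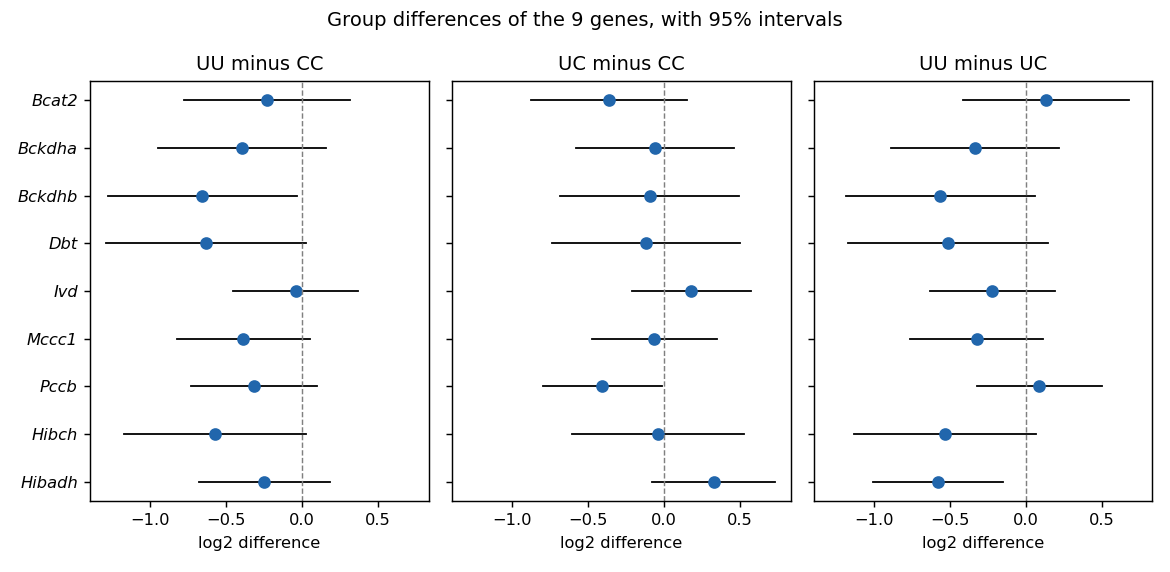
Log2 differences of the 9 genes in UU minus CC, UC minus CC and UU minus UC (x axes, log2 units), with points for limma's estimate from the brightest probe set and lines for its 95% interval. The intervals of Bckdhb in UU minus CC, Pccb in UC minus CC and Hibadh in UU minus UC lie below 0, and the others cross it.

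Bcat2 encodes the mitochondrial branched-chain aminotransferase, which takes the amino group off all 3 amino acids. Bcat2 signal was 518.0, 801.7, 447.3 and 860.3 in UU, 616.1, 602.0, 381.0, 539.6 and 816.0 in UC, and 898.5, 959.8, 682.9, 552.7 and 713.3 in CC. The 3 groups overlapped, and UC3 was the lowest array. The log2 difference was -0.23 ± 0.26 (SE; 95% interval -0.77 to 0.32) in UU against CC and -0.36 ± 0.24 (-0.88 to 0.15) in UC against CC. It was 0.13 ± 0.26 (-0.41 to 0.68) in UU against UC. Bcat1, the cytosolic aminotransferase, fell under the filter on dim genes and was not tested, with signals of 463.6 to 947.5 in UU, 292.6 to 762.5 in UC and 297.2 to 918.4 in CC.

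The branched-chain keto acid dehydrogenase complex is built from Bckdha and Bckdhb, the alpha and beta subunits of its decarboxylase (E1), Dbt, its acyltransferase core (E2), and Dld, a dehydrogenase (E3) shared with the pyruvate and oxoglutarate complexes. Bckdhb signal was 3634.6, 2881.4, 1551.9 and 3861.3 in UU, 2414.3, 5050.9, 3846.0, 4214.8 and 6399.8 in UC, and 3836.9, 5933.8, 3581.1, 5648.4 and 3796.5 in CC. UU3 was the lowest array, 2 of the 4 UU arrays lay inside the CC range, and UC5, CC2 and CC4 were the highest. Mean Bckdhb signal was 2982 ± 1042 in UU, 4385 ± 1475 in UC and 4559 ± 1133 in CC (SD). The log2 difference in UU against CC was -0.65 ± 0.29 (SE; 95% interval -1.28 to -0.03), a fold of 0.635, with an unadjusted p of 0.041 and an adjusted p of 0.284 in limma. UU against UC gave -0.56 ± 0.29 (-1.19 to 0.06) and UC against CC gave -0.09 ± 0.28 (-0.68 to 0.50). Without UU3, the array of highest 3'/5' ratio, the Bckdhb value in UU against CC was -0.37, and with that ratio as a covariate it was -0.36 ± 0.27 (unadjusted p = 0.202, adjusted p = 0.609 in limma). This gene is the one of the 3 promoters above with 2 CCAAT boxes.

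Dbt signal was 2010.3, 1595.6, 1223.7 and 1438.7 in UU, 1515.3, 2827.4, 1839.9, 2719.8 and 2491.3 in UC, and 1799.2, 4910.7, 1375.1, 3269.3 and 2026.5 in CC. CC2 and CC4 stood above every UC and UU array, while CC3 lay below 3 of the 4 UU arrays. Dbt had a log2 difference of -0.63 ± 0.31 (SE; -1.29 to 0.03; adjusted p = 0.319 in limma) in UU against CC, -0.12 ± 0.29 (-0.74 to 0.50) in UC against CC and -0.51 ± 0.31 (-1.17 to 0.14) in UU against UC.

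Bckdha signal was 1701.0, 2190.5, 1897.1 and 1506.4 in UU, 1841.3, 3293.4, 1487.0, 2712.1 and 2559.6 in UC, and 2399.4, 3997.4, 2224.8, 2416.8 and 1491.6 in CC. All UU arrays were below 4 of the 5 CC arrays and above CC5. Bckdha had a log2 difference of -0.39 ± 0.26 (SE; -0.95 to 0.16) in UU against CC, -0.06 ± 0.25 (-0.58 to 0.46) in UC against CC and -0.34 ± 0.26 (-0.89 to 0.22) in UU against UC.

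Of the other genes of the complex, Dld had a signal of 3260.3, 3307.9, 1923.8 and 3050.5 in UU, 3243.4, 6858.5, 4888.3, 3525.7 and 4360.2 in UC, and 4479.7, 6661.4, 4070.5, 4459.0 and 4044.3 in CC. All 4 UU arrays were below all 5 CC arrays, where 8.34% of all genes had groups that did not overlap. For Dld the log2 difference was -0.72 ± 0.23 (SE; -1.21 to -0.23) in UU against CC, with an unadjusted p of 0.007 and an adjusted p of 0.171 in limma, -0.08 ± 0.22 in UC against CC and -0.64 ± 0.23 in UU against UC. Bckdk, the kinase that phosphorylates the E1 alpha subunit and switches the complex off, had log2 differences of 0.05 ± 0.19 in UU against CC, -0.10 ± 0.18 in UC against CC and 0.15 ± 0.19 in UU against UC. No probe set was matched to Ppm1k, the phosphatase that reverses the phosphorylation.

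**Figure D2:**
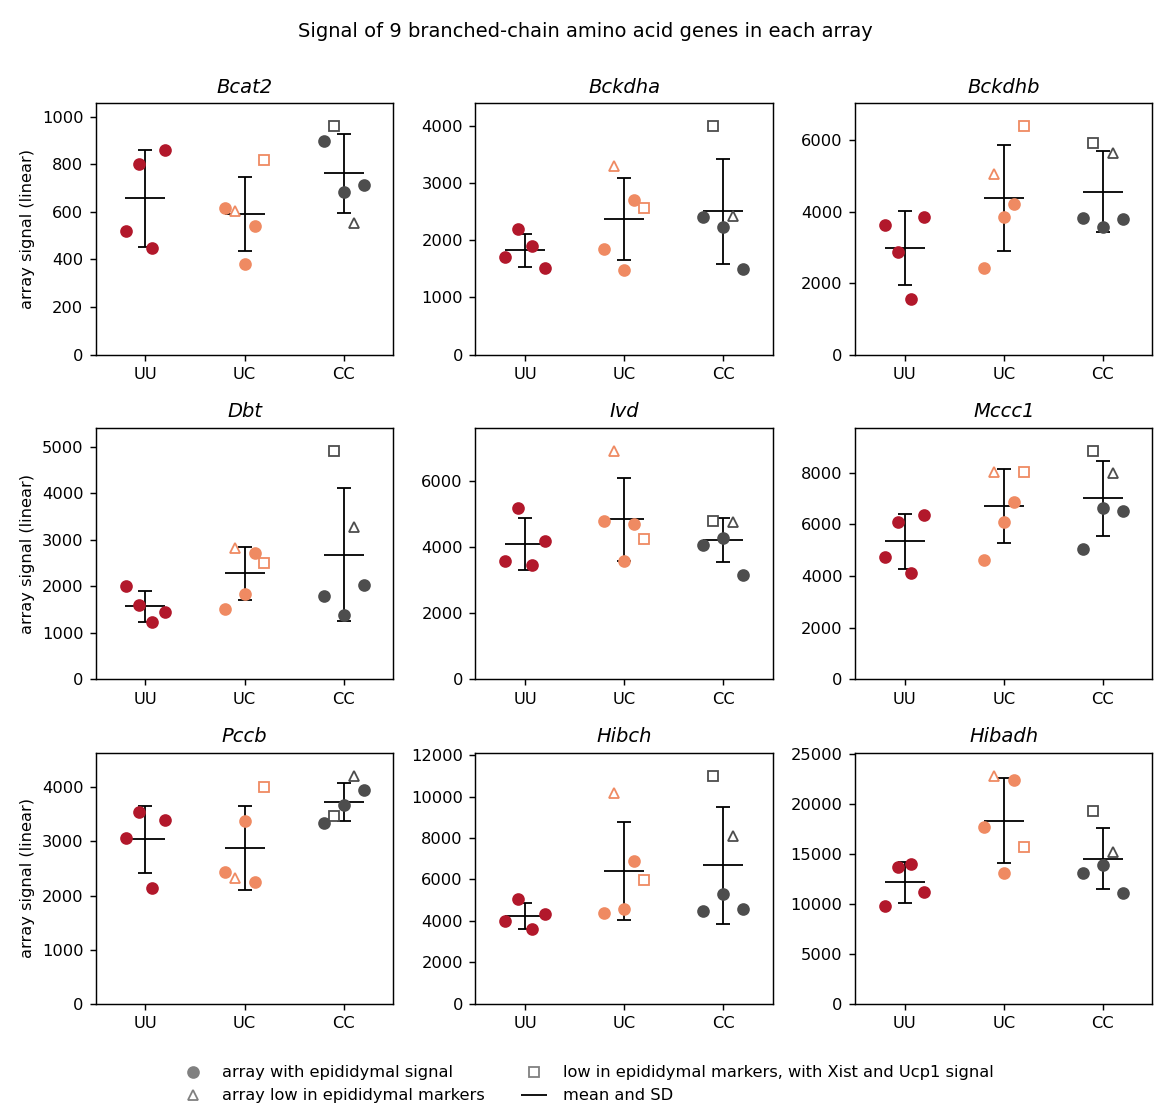
Signal of each of the 9 genes on every array (y axes, linear signal from 0, brightest probe set), with UU, UC and CC from left to right, points for arrays, and horizontal lines with whiskers for group means and SD. Open triangles and squares mark the 4 arrays low in epididymal markers, and these hold the highest signal of each gene.

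In the leucine branch, Ivd (isovaleryl-CoA dehydrogenase) and Mccc1 (the biotin-carrying subunit of methylcrotonyl-CoA carboxylase) act in turn. Ivd signal was 3593.0, 5189.2, 3462.2 and 4192.8 in UU, 4790.6, 6923.8, 3571.1, 4705.1 and 4261.7 in UC, and 4084.1, 4788.5, 4276.8, 4759.6 and 3173.9 in CC. The groups overlapped throughout, with UC2 the highest and CC5 the lowest array. The log2 difference of Ivd was -0.04 ± 0.19 (SE; -0.45 to 0.37) in UU against CC, 0.18 ± 0.18 (-0.21 to 0.57) in UC against CC and -0.22 ± 0.19 (-0.63 to 0.19) in UU against UC. The second probe set of Ivd gave 0.24, 0.28 and -0.04 in the same order, so the sign in UU against CC depended on the probe set.

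Mccc1 signal was 4753.7, 6103.2, 4132.3 and 6371.1 in UU, 4613.7, 8047.8, 6086.1, 6852.1 and 8019.3 in UC, and 5051.6, 8849.5, 6623.7, 8000.6 and 6509.3 in CC. All UU arrays were below 4 of the 5 CC arrays. For Mccc1 the log2 difference was -0.39 ± 0.21 (SE; -0.82 to 0.05; adjusted p = 0.353 in limma) in UU against CC, -0.06 ± 0.19 (-0.47 to 0.35) in UC against CC and -0.32 ± 0.21 (-0.76 to 0.11) in UU against UC. Mccc2, the partner subunit of the carboxylase, was too dim to be tested, with signals of 343.0 to 865.5 in UU, 359.5 to 780.9 in UC and 395.1 to 625.2 in CC.

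In the valine branch, Hibch hydrolyses hydroxyisobutyryl-CoA and Hibadh oxidises the free acid it releases. Hibch signal was 4000.0, 5038.4, 3606.8 and 4316.5 in UU, 4370.5, 10186.2, 4591.7, 6903.8 and 5962.9 in UC, and 4463.2, 11016.8, 5285.4, 8075.0 and 4584.3 in CC. CC2 and UC2 stood far above the rest, and 3 of the 4 UU arrays lay below every UC and CC array. The log2 difference of Hibch was -0.57 ± 0.28 (SE; -1.17 to 0.03; adjusted p = 0.321 in limma) in UU against CC, -0.04 ± 0.27 (-0.60 to 0.53) in UC against CC and -0.53 ± 0.28 (-1.13 to 0.07) in UU against UC. Its second probe set gave -0.57, -0.56 and -0.01 in the same order.

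Hibadh was the gene furthest below 0 in UU against UC. Its signal was 9759.7, 13722.0, 13983.1 and 11135.9 in UU, 17671.9, 22823.6, 13045.1, 22403.2 and 15646.8 in UC, and 13092.2, 19242.8, 13929.0, 15210.3 and 11051.3 in CC. The UC arrays other than UC3 were above all UU arrays. The log2 difference was -0.57 ± 0.20 (SE; -1.003 to -0.147; unadjusted p = 0.012, adjusted p = 0.172 in limma) in UU against UC, a fold of 0.671. It was -0.25 ± 0.20 (-0.67 to 0.18) in UU against CC and 0.33 ± 0.19 (-0.07 to 0.73) in UC against CC. The second Hibadh probe set gave -0.53 in UU against UC (unadjusted p = 0.010, adjusted p = 0.184 in limma with every probe set tested), and there the groups did not overlap, with 3654.3 to 5264.2 in UU and 5492.9 to 9015.6 in UC. It was the 1 comparison of any of the 12 probe sets in which the groups did not overlap. By brightest probe sets, 8.34%, 1.79% and 6% of all genes did not overlap in UU against CC, UC against CC and UU against UC. The share over all probe sets was not computed. In UU against CC the second Hibadh probe set gave -0.45 (unadjusted p = 0.023 in limma). Probe sets of the s_at design, which gave the brightest values for Hibch and Hibadh, can match more than one transcript.

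Propionyl-CoA from valine and isoleucine is carboxylated by the complex of Pcca, its alpha subunit, and Pccb, its beta subunit. Pccb signal was 3068.7, 3539.4, 2143.4 and 3395.4 in UU, 2435.8, 2323.5, 3382.8, 2247.7 and 3998.1 in UC, and 3338.1, 3478.6, 3672.2, 4218.3 and 3946.3 in CC. Only UC3 and UC5 reached the CC range among the UC arrays. The log2 difference of Pccb in UC against CC was -0.40 ± 0.18 (SE; -0.79 to -0.02; unadjusted p = 0.043, adjusted p = 0.563 in limma). The 3 UC arrays below the CC range were UC1 and UC4, those of highest 3'/5' ratio in UC, and UC2, with a log2 ratio of 1.004. Without UC1, UC4 and UU3 the Pccb value in UC against CC was -0.23 ± 0.17 (unadjusted p = 0.206, adjusted p = 0.920 in limma), and with the ratio as a covariate it was -0.16 ± 0.16 (unadjusted p = 0.338, adjusted p = 0.997 in limma). With all arrays it was -0.31 ± 0.19 (-0.73 to 0.10) in UU against CC and 0.09 ± 0.19 (-0.32 to 0.50) in UU against UC. Pcca, its partner, gave -0.40 ± 0.23 in UU against CC, 0.13 ± 0.21 in UC against CC and -0.54 ± 0.23 (unadjusted p = 0.030, adjusted p = 0.230 in limma) in UU against UC, and the 2 subunits thus had opposite signs in UC against CC and in UU against UC. The sequence of Pccb above has no CCAAT box.

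For each of the 9 genes the single highest signal was on an array low in epididymal markers. Of the other tested genes of the pathway, Dld, Pcca, Acadsb, Auh, Mcee, Mmut, Echs1, Acat1, Aldh6a1 and Oxct1 were also highest on such arrays. Bckdk, Klf15, Hsd17b10, Acad8, Slc25a44, Slc7a5 and Slc3a2 were highest on other arrays. The highest signal of each of the 9 genes was on UC2 (2 genes), UC5 (1), CC2 (5) or CC4 (1). Bckdhb and Mccc1, 2 of the 9 genes, were higher on both UC2 and UC5 than on the other 3 UC arrays, and 7 of the 9 were higher on both CC2 and CC4 than on the other 3 CC arrays. The share of all genes that split the arrays in this way was not computed, so these counts are not read as particular to the 9. The lowest signal was on UU3 for 5 genes, UC3 for 2, UU1 for 1 and CC5 for 1, and UU3 had the highest log2 3'/5' ratio. Averaged over the 9 genes, the deviation from the CC mean (log2) was -0.68 to -0.17 on the 4 UU arrays, -0.37 to 0.25 on the UC arrays and -0.27 to 0.47 on the CC arrays.

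Without the 4 arrays low in epididymal markers, the median of the 9 genes was -0.18 in UU against CC, -0.03 in UC against CC and -0.13 in UU against UC, with 4 UU, 3 UC and 3 CC arrays. In UU against CC, Dbt gave -0.15, Hibch -0.18 and Bckdhb -0.40 without them, and Ivd gave 0.09, so that 8 of the 9 were below 0. Leaving out CC2 alone gave -0.38 for Dbt and -0.37 for Hibch. With all 14 arrays Dbt, Hibch, Bckdhb and Ivd had -0.63, -0.57, -0.65 and -0.04. Hibadh in UU against UC gave -0.52 ± 0.21 (SE, adjusted p = 0.322 in limma) without them. The fits with and without these arrays share the remaining arrays, so their SEs do not measure the shifts between them, and the shifts were not tested.

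**Figure D3:**
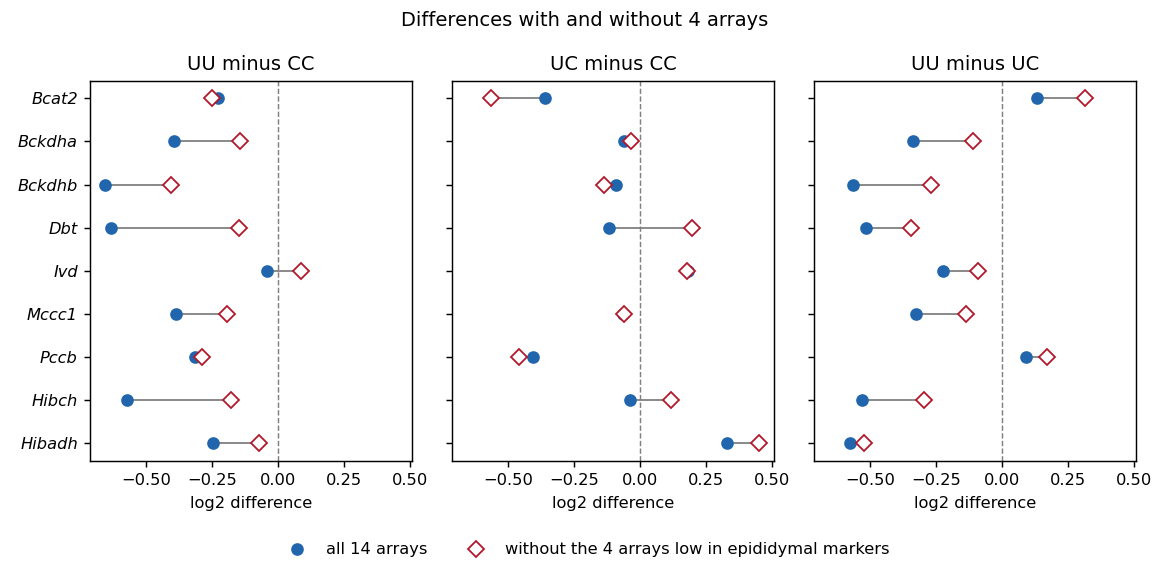
Log2 difference of each of the 9 genes with all 14 arrays and without the 4 arrays low in epididymal markers, in UU minus CC, UC minus CC and UU minus UC (log2 units). In UU minus CC, 8 of the 9 genes stayed below 0 without them, and the median was -0.18, against -0.39 with all arrays.

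**Figure D4:**
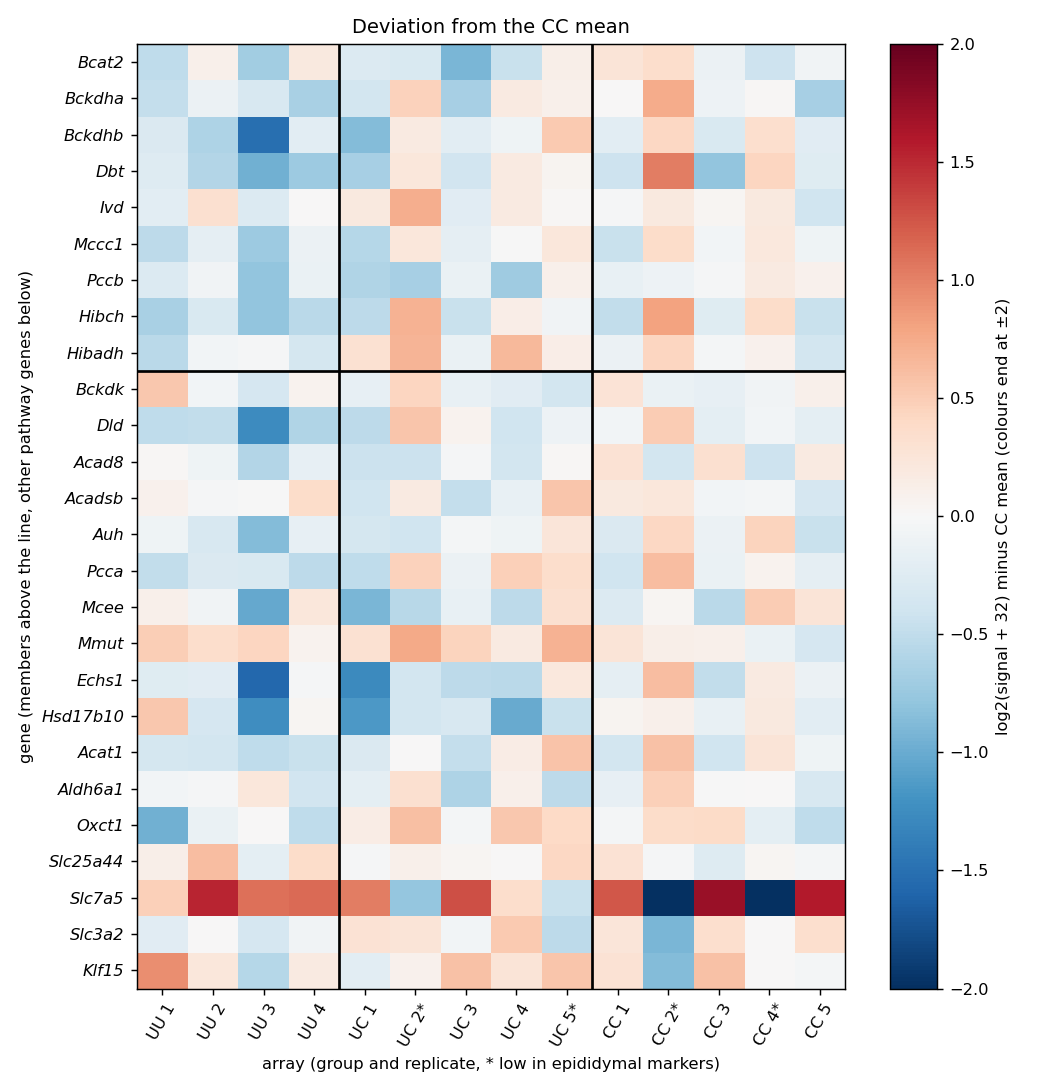
Deviation of each gene's log2 signal from the CC mean on every array, for the 9 genes and the other genes of the pathway that were tested (colour, log2 units, with colours ending at ±2). Columns are arrays in the order UU, UC and CC, and the asterisks mark UC2, UC5, CC2 and CC4. The single highest value of each of the 9 genes is on an array with an asterisk.

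The other genes of the pathway were taken from a list of 25, of which 21 were on the array and 17 were tested. In UU against CC, 11 of the 17 were below 0, with a median of -0.19, and 1 (Dld) was under 0.05 unadjusted, beside 16.4% of all genes. Besides the partner genes above, the smallest unadjusted p values were those of Mmut (methylmalonyl-CoA mutase, 0.34 ± 0.17), Acat1 (mitochondrial thiolase, -0.42 ± 0.23) and Oxct1 (-0.40 ± 0.23), which activates ketone bodies. The other Mmut probe sets went the other way in UU against CC, with mean signals of 3373.9 in UU and 3794.7 in CC for the second and 209.1 in UU and 277.3 in CC for the third. In UC against CC, 10 of 17 were below 0, with a median of -0.06, and 2 were under 0.05 unadjusted, beside 8.75% of all genes. Mmut (0.47 ± 0.16, unadjusted p = 0.008, adjusted p = 0.502 in limma), Hsd17b10 of isoleucine breakdown (-0.66 ± 0.27, unadjusted p = 0.026, adjusted p = 0.542) and Echs1, the enoyl-CoA hydratase (-0.50 ± 0.31), had the smallest p values. Hsd17b10 signal was 1499.0 to 2690.8 in UC and 2890.8 to 3843.4 in CC, without overlap, where 1.79% of all genes had groups that did not overlap. Its second probe set overlapped, with 1167.0 to 1989.4 in UC and 1218.5 to 2347.8 in CC. The third Mmut probe set also had a mean below that of CC in UC (260.4 in UC and 277.3 in CC). In UU against UC, 9 of 17 were below 0, with a median of -0.01, and 3 (Dld, Oxct1 and Pcca) were under 0.05 unadjusted, beside 17.9% of all genes. Oxct1 gave -0.72 ± 0.23 (unadjusted p = 0.006, adjusted p = 0.134 in limma), Acat1 -0.41 ± 0.23 and Hsd17b10 0.41 ± 0.28. The fourth Oxct1 probe set had the opposite sign, with a mean signal of 3234.3 in UU and 2966.7 in UC. None of the 17 passed the adjusted p in any of the 3 comparisons.

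As a comparator, 30 tested genes of other mitochondrial matrix enzymes, such as those of the citric acid cycle and fatty acid oxidation, had medians of -0.48 in UU against CC, 0.01 in UC against CC and -0.50 in UU against UC. Of the 30, 27 were below 0 in UU against CC, 14 in UC against CC and 27 in UU against UC. None of the 30 passed the adjusted p in limma, and 8, 0 and 9 were under 0.05 unadjusted in the same order, beside 16.4%, 8.75% and 17.9% of all genes. Set against these, the 9 genes had medians of -0.39, -0.06 and -0.34.

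Most pairs of the 9 genes were positively correlated across the arrays, with exceptions, and no baseline from other gene pairs was computed. Over the 14 arrays, Pearson's r of the 36 pairs of genes ran from -0.474 to 0.876 with a median of 0.473, and 33 were above 0. The highest values were those of Dbt with Hibch (0.876), Bckdhb with Mccc1 (0.872) and Bckdha with Hibch (0.856). The lowest was that of Pccb with Hibadh (-0.474), and Pccb was in all 3 pairs below 0. Over the 10 arrays not low in epididymal markers the median was 0.261 and 28 pairs were above 0. These values describe arrays that share groups and tissue composition, and no p is given. Outside the pathway, the genes whose log2 signal was most like the mean of the 9 (each scaled to mean 0 and SD 1) over the 14 arrays were Sqor, of mitochondrial sulfide oxidation (r = 0.932), Cmbl (0.931), Etfa, an electron transfer flavoprotein subunit that takes electrons from Ivd and other acyl-CoA dehydrogenases (0.928), Ech1, an enoyl-CoA isomerase of fatty acid oxidation (0.928), and Rarres2, the adipokine chemerin (0.921). Over the 10 arrays their r was 0.793 to 0.907.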

How the data were processed

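Total RNA of 14 samples given as epididymal fat was measured on single-channel Affymetrix arrays. Per the submitters' processing notes, the authors ran MAS5 in GCOS 1.3, and the deposited values are linear signal intensities. Each array's 2%-trimmed mean lay between 1500.45 and 1500.57. The number of arrays limits the precision. Of 22690 probe sets, 20380 had 1 gene symbol in the platform annotation, 691 had several and 64 were controls, and symbols were updated through RefSeq gene identifiers for 20351. For each gene the probe set of highest mean log2 signal was used, values were log2(value + 32), and the dimmest 40% of genes were left out, leaving 7436. One model over all 14 arrays was fitted in limma 3.58.1 (R 4.3.3) with 3 two-sided contrasts and Benjamini-Hochberg adjustment at 0.05, and the procedure was tested on simulated data. Intervals are 95%. The members and the gene lists were chosen with earlier results of these data known. All 9 members are named, with the enzymes' fixed partners, the 3 other pathway genes of smallest p in each comparison and the 5 genes most alike. Alternatives covered pseudocounts, filters, scalings, probe set choice, array weights, covariates, a replicate block and leaving out arrays.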

Additional observations from a re-analysis of the deposited data

Results flagged for a closer look

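Among 45 groups examined for an array far from its fellows, 4 stood out, and chance gives about 1 in 20 groups. The second Hibch probe set had 2521.1 on CC2, where the other CC arrays had 721.8 to 944.7. The mean log2 level of the brown fat markers was 11.376 on UC5 and 11.0 on CC2, far above the other arrays of their groups. The log2 3'/5' ratio of the control transcripts was 2.105 on UU3, above the other UU arrays. CC2 also held the highest signal of 5 of the 9 genes, and UU3 the lowest of 5. The part of these arrays' composition or RNA quality in the pathway values was not tested.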

How the results depend on the processing

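None of the 9 genes passed an adjusted p of 0.05 in limma under any of 34 settings in which it was tested (Bcat2 was not tested with the dimmest 60% left out), and the smallest adjusted p was 0.0858 (Hibadh in UU against UC with the replicate block). Of 888 gene values under the alternatives, 844 kept their sign, and the cause of the changes was not tested. Several alternatives leave a gene's estimate as it was, such as another filter or threshold, or leaving out an array of the group not compared. The sign could not change under those, so the count does not measure robustness. The settings that leave out 2, 3 or 4 arrays or add a covariate were chosen after seeing the data. The median of the 9 genes ran from -0.46 to -0.17 in UU against CC, -0.19 to 0.13 in UC against CC and -0.49 to -0.13 in UU against UC. Ivd in UU against CC was 0.12 with array weights, 0.10 as a mean over probe sets, 0.044 with the epididymal covariate, 0.0091 without the 2 arrays with Xist signal, 0.035 without the 3 of highest 3'/5' ratio and 0.089 without the 4 low in epididymal markers, and leaving out single arrays gave -0.16 to 0.035, above 0 without UU1, UU3, CC2 or CC4. In UC against CC, array weights gave 0.053 for Bckdha, 0.14 for Dbt, 0.035 for Mccc1 and 0.19 for Hibch, and without the 2 arrays with Xist signal the values were 0.086 for Bckdha, 0.10 for Dbt and 0.17 for Hibch. Without the 4 arrays low in epididymal markers Dbt was 0.20 and Hibch 0.12. Without the 3 arrays of highest 3'/5' ratio Bckdhb was 0.16, Mccc1 0.090 and Hibch 0.061, and with that ratio as a covariate Bckdhb was 0.25 and Mccc1 0.067. Median centring, which moved the median of all genes in UU against UC by -0.137, gave 0.0032 for Bckdha and 0.023 for Hibch in UC against CC, and -0.0036 for Bcat2 and -0.047 for Pccb in UU against UC, where quantile normalization gave -0.022 for Bcat2. Leaving out single arrays gave -0.23 to 0.13 for Bckdha, -0.25 to 0.10 for Bckdhb, -0.32 to 0.14 for Dbt, -0.17 to 0.066 for Mccc1 and -0.22 to 0.16 for Hibch in UC against CC, where each of UC1 and CC2 left out on its own put all 5 above 0 (0.017 to 0.10 and 0.011 to 0.16), and -0.0079 to 0.29 for Bcat2 in UU against UC.

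Genes called over the whole array in UU against CC (0) were 1 with the 3'/5' covariate, 11 at an adjusted p of 0.1, 12 with array weights, 19 with the brown fat covariate, 3 with the dimmest 60% left out, 3 with the epididymal covariate, 1 with no filter, 7 with the replicate block, 1 without the 2 arrays with Xist signal and 1 without the 4 low in epididymal markers, and 0 to 3 leaving out single arrays (3 without UU4, 2 without CC1, 1 without CC2). In UU against UC (60) they were 115 with the 3'/5' covariate, 199 at 0.1, 111 with the brown fat covariate, 14 with the epididymal covariate, 105 with median centring (2 higher and 103 lower, beside 9 and 51), 25 with no filter, 9 with only the groups compared, 94 with the replicate block, 3 without the 2 arrays with Xist signal, 2 without the 3 of highest 3'/5' ratio and 1 without the 4 low in epididymal markers. Leaving out single arrays gave 0 (without UC2, UC4 or UU1) to 108 (without UC1), with 12 without UU2, 29 without UU3, 22 without UU4, 94 without UC3, 6 without UC5 and 14 without CC1. Of 13 pairs of arrays sharing a replicate number across groups, 6 correlated above 0.1 (-0.324 to 0.486). Pairs of different number ran from -0.583 to 0.527, a range that holds the other, and the numbers were not taken to pair mice.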

Other observations

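Slc7a5, the catalytic subunit of the LAT1 transporter that carries branched-chain and aromatic amino acids into cells, split the arrays by epididymal signal. Its signal was 512.0 and 654.6 on UC2 and UC5 and 149.9 and 172.4 on CC2 and CC4, against 1165.5 to 3074.2 on the other 10 arrays. Each of the 9 catabolic genes had its single highest signal on UC2, UC5, CC2 or CC4. The 9 were not high on all of these arrays, with Pccb at 2323.5 on UC2 and Bcat2 at 552.7 on CC4. Slc3a2, the transporter's partner subunit, was 6108.3 and 3550.7 on UC2 and UC5, and 2678.8 and 5133.7 on CC2 and CC4, against 4020.1 to 7327.0 on the other 10. Slc7a5 was chosen here after its values were seen.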
